A study of Mus musculus with 4 samples.

Results

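Clusters of distal accessible regions, open in all 4 libraries and lying next to each other, were examined in myeloid-derived suppressor cells (MDSCs) of tumour-bearing mice. Autosomal ATAC-seq peaks of the 4 libraries were merged into regions, and regions with a peak in every library and a mean summit more than 2.5 kb from any protein-coding gene end were kept. Kept regions separated by gaps of 12500 bp or less were joined, and joined stretches of 3 or more regions formed the set. The set held 1779 regions in 473 stretches, out of 44742 merged autosomal regions, 16657 autosomal regions called in all 4 libraries and 7991 of these that were distal. The members were thus chosen by the authors' peak calls in the same 4 libraries and by position, so the number, spacing and presence of the regions are a description and carry no test.

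ATAC-seq uses the Tn5 transposase to insert sequencing adapters into open DNA, so a peak marks a place where chromatin was accessible. The cells were positive for Gr1 and CD11b, markers shared by neutrophil-like and monocyte-like MDSCs, and were sorted from ascitic fluid 14 days after the mice received EL4, a murine lymphoma line of T cell origin. Donors were Sphk2 KO mice (2 libraries), which lack sphingosine kinase 2, an enzyme that makes the lipid sphingosine 1-phosphate, and WT mice (2 libraries). All mice of both genotypes carried the tumour, so no tumour-free baseline enters any value. The strain, age and sex of the mice and the deleted part of Sphk2 are not given in the sources used here. A library was made from 20000 cells with Tn5 at 40% of the usual amount. The labels call the libraries of a genotype biological replicates without tying them to animals, so the spread between libraries may be partly technical.

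Distal accessible regions include enhancers, DNA elements that bind transcription factors and act on genes at a distance. Enhancers often lie in clusters along the genome, and large clusters bound by lineage-determining factors are known as super-enhancers or stretch enhancers. In myeloid cells such elements are bound by PU.1, C/EBP, RUNX and AP-1 family factors. An ATAC-seq peak alone does not show enhancer activity or the gene an element acts on, so genes are named here only for their place beside a stretch.

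A gene was counted as next to a stretch when it held or overlapped the stretch, or when it was the nearest protein-coding gene on either side within 100 kb. RefSeq promoter windows fell inside 97 member regions, as 125 windows covering 250 bases before a start. Of these windows, 69 belonged to 55 protein-coding genes and 56 to 46 long non-coding RNA genes. The following windows are printed because the stretches that contain them recur in the results. They are from RefSeq on GRCm38.p6 (mm10), 5′ to 3′ on the gene's strand. Capitals mark matches to the AP-1 letters TGANTCA or the C/EBP letters TTGCNNAA on either strand. Wipf1 lies at chr2:73485754-73486003 (minus strand), Ralgds at chr2:28533214-28533463 (plus strand), Zeb2 at chr2:45110278-45110527 (minus strand), Sgms1 at chr19:32211014-32211263 (minus strand) and Psen2 at chr1:180256301-180256550 (minus strand).
Wipf1 upstream window: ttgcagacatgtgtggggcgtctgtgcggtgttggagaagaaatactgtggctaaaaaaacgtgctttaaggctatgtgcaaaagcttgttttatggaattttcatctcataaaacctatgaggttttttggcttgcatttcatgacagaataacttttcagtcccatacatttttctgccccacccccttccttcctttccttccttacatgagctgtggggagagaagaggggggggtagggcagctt
Ralgds upstream window: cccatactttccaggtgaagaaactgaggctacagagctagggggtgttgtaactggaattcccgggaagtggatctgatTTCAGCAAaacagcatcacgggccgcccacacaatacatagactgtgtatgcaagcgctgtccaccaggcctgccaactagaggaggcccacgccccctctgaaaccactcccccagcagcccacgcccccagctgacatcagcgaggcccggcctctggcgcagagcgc
Zeb2 upstream window: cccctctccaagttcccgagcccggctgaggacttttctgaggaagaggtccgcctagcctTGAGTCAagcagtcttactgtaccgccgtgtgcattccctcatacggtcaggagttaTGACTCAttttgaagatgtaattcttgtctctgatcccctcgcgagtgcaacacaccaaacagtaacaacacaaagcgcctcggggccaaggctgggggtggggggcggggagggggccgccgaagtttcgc
Sgms1 upstream window: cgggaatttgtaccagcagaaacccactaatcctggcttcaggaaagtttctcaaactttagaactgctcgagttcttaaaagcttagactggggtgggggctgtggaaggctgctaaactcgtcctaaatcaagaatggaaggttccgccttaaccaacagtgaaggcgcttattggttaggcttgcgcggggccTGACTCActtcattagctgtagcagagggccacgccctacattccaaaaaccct
Psen2 upstream window: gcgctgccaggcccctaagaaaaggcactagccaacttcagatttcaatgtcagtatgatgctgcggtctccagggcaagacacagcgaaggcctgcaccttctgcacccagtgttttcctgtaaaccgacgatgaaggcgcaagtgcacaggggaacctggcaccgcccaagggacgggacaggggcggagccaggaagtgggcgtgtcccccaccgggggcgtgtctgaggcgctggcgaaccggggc

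The Zeb2 window held the AP-1 letters at positions 62 and 119, counted from 1 at the 5′ end, the Sgms1 window at position 197, and the Ralgds window the C/EBP letters at position 81. The Wipf1 and Psen2 windows held none of the 5 motifs searched on both strands, which were PU.1 (GAGGAAGT), C/EBP (TTGCNNAA), AP-1 (TGANTCA), RUNX (TGTGGTT) and CREB/ATF (TGACGTCA). The AP-1 and CREB/ATF letters share their first and last 3 bases but no match can satisfy both. AP-1 letters were found in 15.2% of the 125 windows inside members, against 5.43% of 534 windows inside isolated distal shared regions, 3.34% of 7026 windows inside shared regions near gene ends and 6.77% of all 31396 autosomal windows. With 1 window taken per member, the first by coordinate, 16 of 97 (16.5%) held AP-1 letters. PU.1 letters were found in 6.4% of windows inside members, 5.06% inside isolated regions, 2.97% near gene ends and 2.47% of all windows. In the same order, C/EBP letters were found in 11.2%, 8.43%, 6.12% and 9.66%. RUNX letters were found in 2.4%, 1.69%, 2.53% and 4.42%, and CREB/ATF letters in 4%, 2.25%, 3.59% and 1.58%. These shares describe windows of annotated starts, which cover 115 of 1779 members (6.46%) at least in part, and not the members as a whole.

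The libraries differed in depth before any comparison. The authors' peak calling kept 25877428 and 27686223 fragments in Sphk2 KO libraries 1 and 2 and 33859480 and 34443062 in WT libraries 1 and 2, and it listed 20759 and 27446 peaks in Sphk2 KO and 31507 and 31843 in WT. The median fold enrichment of all peaks was 6.03 and 6.01 in Sphk2 KO and 5.19 and 5.11 in WT. Within Sphk2 itself, a region at chr7:45715043-45716683 had −log10 q values of 26.4 and 42.2 in Sphk2 KO and no peak in WT, and a region at the gene's upper end was called in all 4. These calls separate the genotypes but do not show which part of the gene was removed. Because −log10 q moves with depth, each region's best peak was turned into a score position, its percentile (highest 100) among the 16657 autosomal regions called in all 4 libraries, taken within each library.

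Stretches were mostly short, and a few were very long. Of the 473 stretches, 280 held 3 regions, 111 held 4 and 82 held 5 or more. The median span was 17.3 kb and the range 3.09 to 89.2 kb, with accessible regions covering a median of 18.3% of a span. The median gap between neighbouring members was 5314 bp. The largest gap inside a stretch was 12478 bp and the smallest that split 2 stretches 12505 bp, so the boundaries follow from the limit. The member nearest to a gene end lay 2516.5 bp from it, and the farthest shared region left out lay 2498 bp away. Of the stretches, 221 (46.7%) lay inside a single gene, 65 overlapped a gene in part and 187 lay between genes.

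**Figure D1:**
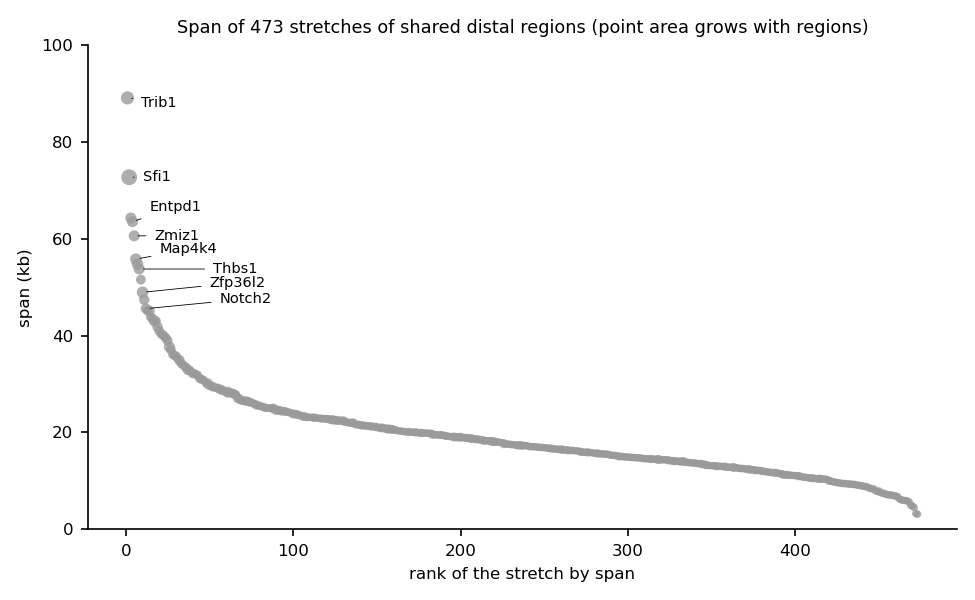
Span in kb (vertical axis) of the 473 stretches in order of rank (horizontal axis), with point area growing with the number of regions. The stretch beside Trib1 spans 89.2 kb and that over Sfi1 72.8 kb, against a median of 17.3 kb.

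The longest stretch lay beside Trib1, the gene of a pseudokinase that directs C/EBP alpha to degradation. It ran from chr15:59720467-59809631, with 12 regions over 89.2 kb, and its near end was 63.4 kb from the gene. Ranked by summed −log10 q it had rank 1 of 473 in every library, with sums of 552.2 and 1123 in Sphk2 KO and 876.6 and 965.3 in WT. Its mean score position was 68.8 and 67.4 in Sphk2 KO and 69.9 and 69.4 in WT, so both WT libraries stood higher by a small margin. Its members ranged widely. The region at chr15:59727956-59729207 had positions of 93.9 and 95.4 in Sphk2 KO and 94.6 and 94.6 in WT, near the top in all 4. The region 51625 bp into the stretch had 63.8 and 66.1 in Sphk2 KO and 83.0 and 80.9 in WT, and the groups did not overlap there. A further region at chr15:59799371-59799748, inside the span, had a peak in WT alone, in each library (−log10 q 17.4 and 13.8). Beyond a gap of 13119 bp, 3 more shared regions formed a separate stretch at chr15:59822751-59831746, with positions of 41.2 and 43.9 in Sphk2 KO and 51.9 and 55.5 in WT.

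The stretch with the most regions, 18 over 72.8 kb, lay over Sfi1, which encodes a centrin-binding protein of the centrosome, at chr11:3123593-3196358. By summed score it ranked 2 and 2 in Sphk2 KO and 3 and 2 in WT. Its mean score position was 46.1 and 42.7 in Sphk2 KO and 38.5 and 40.3 in WT, with both Sphk2 KO libraries higher. This stretch stood apart in its background: pileup divided by fold enrichment, an estimate of the local background the caller used, had a median of 106 and 118 fragments in Sphk2 KO and 126 and 136 in WT. In the other stretches the median was 7.45 and 12.1 in Sphk2 KO and 9.04 and 11.3 in WT, and the highest values, 67.7 and 101 in Sphk2 KO and 74.5 and 86.9 in WT, belonged to the stretch beside Scaf8. Counts given below changed little when both stretches were left out, with 1758 members and 471 stretches remaining.

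The next longest stretch, at chr10:96150320-96214656 (64.3 kb, 8 regions), had no protein-coding gene within 100 kb. Its nearest, Eea1, which encodes an early endosome tether, was 105 kb away, and the stretch had positions of 40.8 and 34.4 in Sphk2 KO and 33.6 and 33.6 in WT. Entpd1, the gene of CD39, an enzyme that removes extracellular ATP, held an 8-region stretch of 63.6 kb with positions of 52.5 and 48.5 in Sphk2 KO and 45.6 and 45.7 in WT. Zmiz1, a transcriptional coactivator gene, held one of 60.6 kb with positions of 36.8 and 36.8 in Sphk2 KO and 41.7 and 40.1 in WT. These 2 stretches thus ran in opposite directions, without overlap between genotypes in either. A 9-region stretch of 55.8 kb began in Map4k4, a kinase gene, and ended 19.5 kb from Il1r2, the gene of the decoy receptor for interleukin 1. It had positions of 47.1 and 46.1 in Sphk2 KO and 39.4 and 38.3 in WT, and a second stretch of 26.4 kb inside Il1r2 had 16.7 and 11.3 in Sphk2 KO and 6.77 and 8.42 in WT. Both stood higher in both Sphk2 KO libraries. The Il1r2 stretch also held 2 further regions with peaks in Sphk2 KO alone, in each library, and the Map4k4 stretch held 1 with a peak in WT alone, in each library (−log10 q 2.80 and 7.24).

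**Figure D2:**
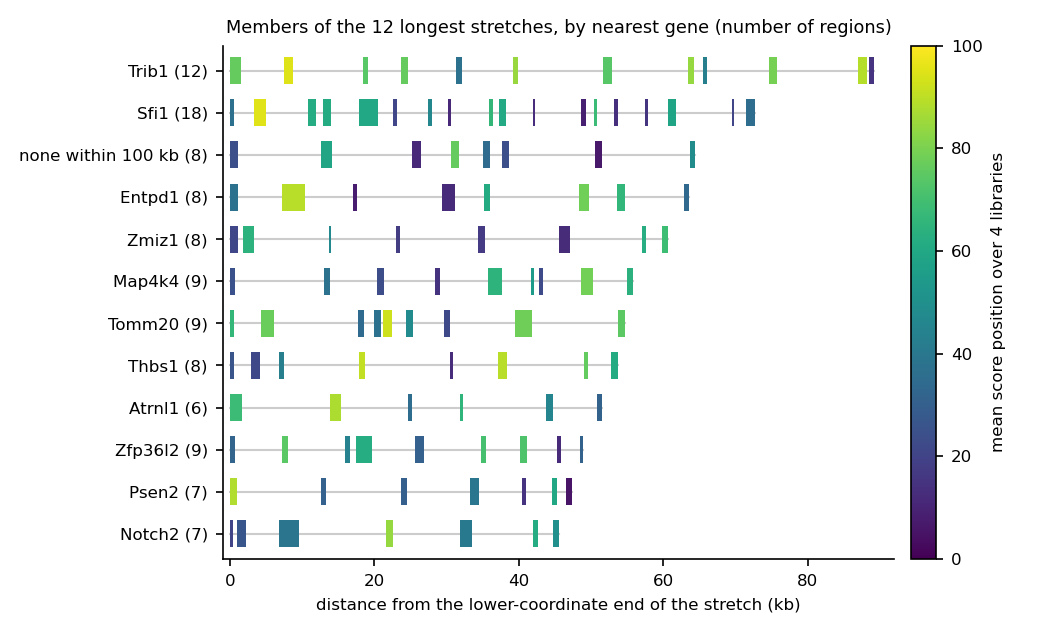
Members of the 12 longest stretches, drawn to scale along the distance from the lower-coordinate end of each stretch (kb), labelled by the nearest gene with the number of regions in parentheses. Colour gives the mean score position over the 4 libraries. The 12 regions of the Trib1 stretch run over 89.2 kb, and regions of high and low position lie side by side.

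The other stretches among the 20 longest lay beside genes of varied roles. Tomm20, a mitochondrial import receptor gene, lay 48.1 kb from 9 regions with positions of 61.1 and 57.5 in Sphk2 KO and 58.1 and 59.4 in WT, which overlapped. Thbs1, the gene of the matrix protein thrombospondin 1, lay 99.2 kb from 8 regions with 57.1 and 54.9 in Sphk2 KO and 51.7 and 46.6 in WT. Zfp36l2, which encodes a protein that binds and destabilises AU-rich mRNAs, lay 34.6 kb from 9 regions with 52.6 and 52.0 in Sphk2 KO and 41.0 and 45.0 in WT. In the Thbs1 and Zfp36l2 stretches both Sphk2 KO libraries stood above both WT libraries. Notch2, a receptor gene, held 7 regions with 49.6 and 49.9 in Sphk2 KO and 44.5 and 40.1 in WT. Psen2, the gene of a catalytic subunit of gamma-secretase, which cleaves Notch receptors, overlapped 7 regions with 38.4 and 39.6 in Sphk2 KO and 37.9 and 36.9 in WT. The Psen2 member with the window printed above had positions of 88.1 and 87.7 in Sphk2 KO and 86.4 and 89.6 in WT, the highest of its stretch, and did not separate the genotypes. Atrnl1 held 6 regions with 50.7 and 53.4 in Sphk2 KO and 60.0 and 58.1 in WT, one of 3 stretches among the 20 longest with both WT libraries higher, beside those of Trib1 and Zmiz1. The stretch between Cd44, the hyaluronan receptor gene, and Pdhx, a gene of the pyruvate dehydrogenase complex, had 64.2 and 60.4 in Sphk2 KO and 59.6 and 60.9 in WT. The remaining 7 lay in or beside Rubcnl, Pxn, Ston2, Ier5, Ago2, Lrrfip1 and Wipf1, with mean positions of the 4 libraries' groups between 40.7 and 55.0 in Sphk2 KO and between 37.9 and 53.6 in WT.

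A stretch with high scores in few regions lay on the upper-coordinate side of Cebpb, the gene of a C/EBP factor that drives emergency production of granulocytes. It had 8 regions over 37.7 kb and began 50.2 kb from the gene, at chr2:167740582-167778260. Its rank by summed −log10 q was 3 and 3 in Sphk2 KO and 2 and 3 in WT. Its region at chr2:167752921-167754816 had positions of 94.6 and 96.5 in Sphk2 KO and 96.6 and 96.1 in WT, and the region at chr2:167774957-167775869 had 95.0 and 94.8 in Sphk2 KO and 93.8 and 93.0 in WT. It was 1 of 3 stretches with 2 members in the top 10% of every library, beside those at Itpkb and Ccnl1. A second stretch of 4 regions, 7.52 kb from Cebpb, had low positions of 17.5 and 25.4 in Sphk2 KO and 18.2 and 22.7 in WT. Neither separated the genotypes. Other stretches with many regions lay at Syk, App, Cd52, Lbr and Enah, Gm46963, Litaf, Irak2, Kctd12 and Acod1, and Sgms1. Acod1 makes itaconate in activated myeloid cells, and its stretch of 7 regions, 9.46 kb from the gene, had 54.8 and 51.4 in Sphk2 KO and 56.7 and 54.8 in WT.

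Ranks of stretches were alike in all 4 libraries. By summed −log10 q, 14 stretches were among the top 20 in every library and 24 in at least 1. Spearman correlations of the sums across the 473 stretches lay between 0.945 and 0.973 for the 6 pairs of libraries, as a description of values that share region boundaries and counts of regions. With the mean score position, which does not grow with the number of regions, they lay between 0.894 and 0.954. The pair of WT libraries was the most alike on both scales and Sphk2 KO 1 with WT 1 the least. Shorter stretches with high sums lay in Pik3ap1, an adaptor of phosphoinositide 3-kinase, ranked 6 and 4 in Sphk2 KO and 8 and 5 in WT, and in Itpkb, an inositol trisphosphate kinase gene, ranked 5 and 5 in Sphk2 KO and 5 and 6 in WT. A stretch of 4 regions at chr1:128704868-128725403 ranked 8 and 8 in Sphk2 KO and 7 and 8 in WT. Its nearest gene was Cxcr4, the receptor that holds neutrophils in bone marrow, 113 kb away.

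Members of a stretch differed widely among themselves. The range of mean position within a stretch had a median of 46.5 points, and it exceeded 50 points in 201 stretches (42.5%). A total of 42 members were in the top 10% of every library, spread over 39 stretches, while 853 members (47.9%) were below position 50 in every library.

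Compared with the 4242 isolated distal shared regions, members were alike in width and in the share inside genes, lay farther from gene ends and had higher −log10 q. The median width was 874 bp in members and 893 bp in isolated regions, and 53.6% of members and 54.1% of isolated regions lay inside a gene. The median distance to a gene end was 22839 bp in members and 15066.5 bp in isolated regions. RefSeq promoter windows met 6.46% of members and 13.2% of isolated regions at least in part. The median position was 44.6 and 42.5 in Sphk2 KO and 41.7 and 41.5 in WT for members, against 35.2 and 34.9 in Sphk2 KO and 33.8 and 34.0 in WT for isolated regions. Members were therefore higher in each library, by 9.43 and 7.55 points in Sphk2 KO and 7.92 and 7.56 points in WT. Ranked by pileup, the height of fragment coverage, the median position was 52.2 and 50.2 in Sphk2 KO and 48.5 and 49.3 in WT for members, against 32.4 and 30.9 in Sphk2 KO and 30.9 and 31.2 in WT for isolated regions. Ranked by fold enrichment over local background the order turned round, with 35.1 and 30.4 in Sphk2 KO and 32.7 and 30.6 in WT for members, against 40.4 and 42.6 in Sphk2 KO and 40.0 and 41.3 in WT for isolated regions. The caller took background from a window of 10000 bp, and 1035 members (58.2%) had another member within 5000 bp. The part of that window in the fold enrichment was not tested.

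**Figure D3:**
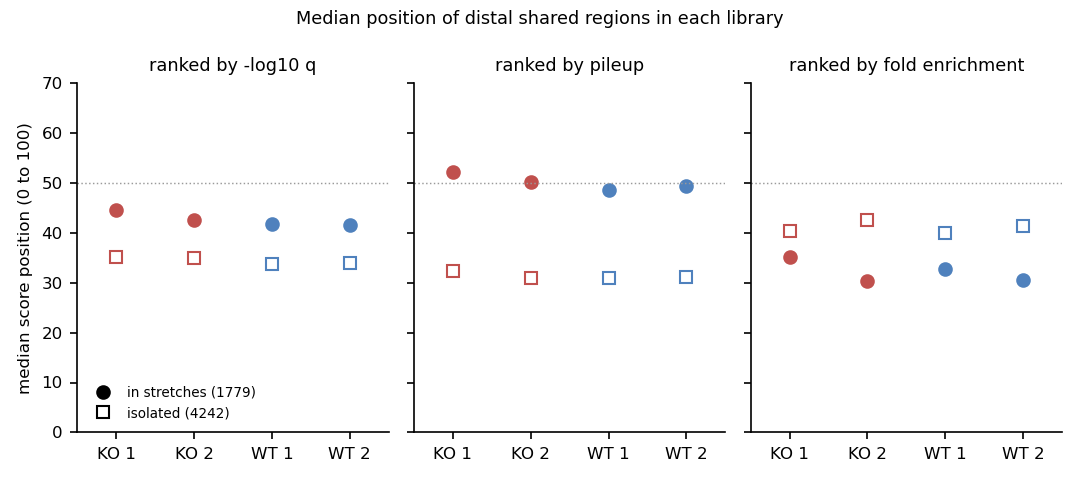
Median score position (vertical axis, 0 to 100) of the 1779 regions in stretches (filled circles) and the 4242 isolated distal shared regions (open squares) in Sphk2 KO 1, Sphk2 KO 2, WT 1 and WT 2, ranked by −log10 q, pileup or fold enrichment. Regions in stretches stand above isolated regions by −log10 q and pileup and below them by fold enrichment in every library.

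Between the genotypes, members ranked slightly higher in Sphk2 KO. The median position of the 1779 members averaged 43.5 ± 1.52 in Sphk2 KO and 41.6 ± 0.106 in WT (SD, n = 2 each), a difference of 1.92 points, which was 0.88 without Sphk2 KO 1. In the two-sided exact permutation test over libraries p was 0.33, the smallest value that 2 against 2 can give, so this design cannot reach 0.05. By fold enrichment the genotypes overlapped, and p was 1 in the same exact permutation test. Isolated regions differed in the same direction, by 1.17 points, with 35.0 ± 0.187 in Sphk2 KO and 33.9 ± 0.153 in WT (SD, n = 2 each). By −log10 q, the margin of members over isolated regions had overlapping groups and gave p = 1 in the exact permutation test. By pileup the margin was 19.9 and 19.3 in Sphk2 KO and 17.6 and 18.1 in WT, without overlap, and p in the exact permutation test was 0.33, again the smallest possible. A difference particular to members was not shown.

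Region by region, both Sphk2 KO positions lay above both WT positions in 553 of 1779 members (31.1%), against 22.1% of all 16657 shared regions. Both WT positions lay above both Sphk2 KO positions in 291 members (16.4%), against 21.4% of all shared regions. In isolated distal regions the shares were 24.9% with Sphk2 KO higher and 21.4% with WT higher, and in shared regions near gene ends 17.6% and 23.0%. By fold enrichment, 374 members (21.0%) stood higher in Sphk2 KO and 278 (15.6%) in WT, against 18.6% and 18.1% of all shared regions. Since positions are relative within a library, members and gene-end regions share 1 scale: where one class stands higher in Sphk2 KO, another must stand lower. The Sphk2 KO libraries were also the shallower ones with the higher median fold enrichment, and the part of depth or enrichment in these counts was not tested.

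Of whole stretches, by the mean position of their regions, 172 (36.4%) stood higher in both Sphk2 KO libraries and 81 (17.1%) in both WT libraries. The background for joined groups of 2 or more regions, which include these stretches, was 33.3% and 18.3%. Pairs of regions alone gave 31.9% and 18.9%, so stretches stood a few points from pairs in each direction. At 4 or more regions, 83 of 193 stretches stood higher in Sphk2 KO and 32 in WT. Whether these shares move with the number of regions was not tested. In 122 stretches some members stood higher in Sphk2 KO and others in WT. Every member stood higher in Sphk2 KO in 18 stretches and in WT in 2, those in Lcp2, the gene of the adaptor SLP-76, and between 1700017B05Rik and Ppcdc. No background for such stretches was computed. Single members stood higher in Sphk2 KO in 31.1% and in WT in 16.4%, so the 18 and 2 are a description only.

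**Figure D4:**
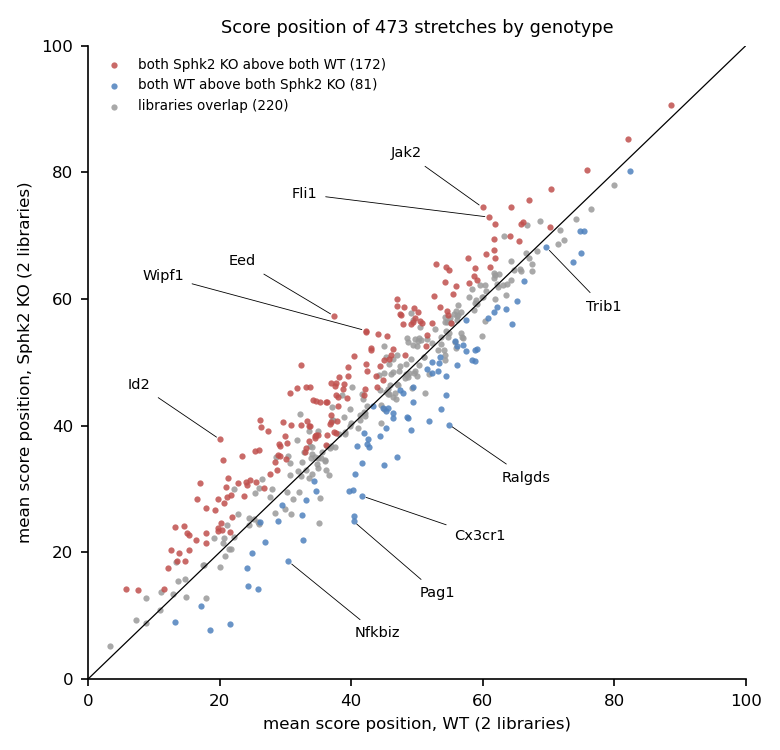
Mean score position of the 473 stretches in Sphk2 KO (vertical axis, mean of 2 libraries) against WT (horizontal axis, mean of 2 libraries), with the line of equal values. Red points (172) had both Sphk2 KO libraries above both WT libraries, blue points (81) the reverse, and grey points (220) overlapped.

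The stretches with the largest differences each had 3 or 4 regions, and were picked for that difference. The largest in favour of Sphk2 KO lay 35.6 kb from Eed, a core subunit gene of Polycomb repressive complex 2, on the same chromosome as Sphk2 at chr7:90016603-90024519. Its positions were 57.4 and 57.2 in Sphk2 KO and 38.3 and 36.5 in WT, a difference of 19.9 points. Its 3 regions each stood higher in both Sphk2 KO libraries; the first had 43.5 and 36.0 in Sphk2 KO and 9.31 and 6.23 in WT. A stretch 69.6 kb from Id2, an inhibitor of helix-loop-helix factors, had 36.9 and 38.7 in Sphk2 KO and 17.9 and 22.3 in WT. A stretch in Ubac2 and 13.1 kb from Gpr183, a receptor for oxysterols, had 53.7 and 45.4 in Sphk2 KO and 32.6 and 32.3 in WT. Jak2, the kinase gene downstream of many cytokine receptors, lay 9.45 kb from a stretch with 73.0 and 75.9 in Sphk2 KO and 55.8 and 64.1 in WT. Stretches at Snx9, a sorting nexin gene, and Gramd1a, a gene of a cholesterol transfer protein, completed the 6, with differences of 14.7 and 14.5 points. The Wipf1 stretch, over the gene of a partner of the actin regulator WASP, was the longest in which every member stood higher in Sphk2 KO. Its 6 regions had a mean of 57.9 and 52.1 in Sphk2 KO and 40.9 and 43.5 in WT, and the member that holds the printed window had 62.5 and 54.9 in Sphk2 KO and 48.0 and 51.6 in WT.

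The largest difference in favour of WT lay 45.1 kb from Pag1, the gene of a membrane adaptor that recruits the inhibitory kinase Csk, with 18.7 and 31.1 in Sphk2 KO and 36.3 and 44.4 in WT. The stretch in Ralgds, a gene of an exchange factor for Ral GTPases, had 41.9 and 38.5 in Sphk2 KO and 52.9 and 56.7 in WT, and the member that holds the printed window had 48.5 and 37.1 in Sphk2 KO and 61.7 and 59.7 in WT. A region between its members had a peak in WT alone, in each library (−log10 q 20.2 and 11.9). A stretch over Cx3cr1, the fractalkine receptor gene of patrolling monocytes, had 23.9 and 33.9 in Sphk2 KO and 45.1 and 38.2 in WT. A stretch 18.7 kb from Ccl2, the gene of a chemokine that attracts monocytes, had low positions of 10.5 and 6.94 in Sphk2 KO and 19.9 and 23.1 in WT. The stretches in Nav2, a cytoskeletal regulator gene, and beside Ppcdc, a gene of coenzyme A synthesis, differed by −14.7 and −11.9 points. Stretches on the same chromosome as Sphk2 stood higher in Sphk2 KO in 11 of 29 and in WT in 5, shares close to the 172 and 81 of all 473.

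Calls inside the spans were examined apart from the members. The spans held 299 other regions, of which 38 were shared regions near gene ends and 261 lacked a peak in at least 1 library. Of these 261, 10 (3.83%) were called in both Sphk2 KO libraries only, against 0.972% of all 28085 autosomal regions without a peak in every library. A further 28 (10.7%) were called in both WT libraries only, against 8.65%. The Sphk2 KO-only regions lay in 9 stretches, and that in Akap13 had the highest values by the lower of its 2 libraries (−log10 q 12.6 and 18.5). The WT-only regions lay in 28 stretches, and that in the stretch beside Nenf and Atf3 had the highest values by the same measure, 20.7 and 18.9, followed by those at Actb with 18.9 and 16.6, Cd52 with 16.2 and 18.3 and Trib1. Inside spans, 36 regions were missing in Sphk2 KO 1 alone, 5 in Sphk2 KO 2 alone, 9 in WT 1 alone and 5 in WT 2 alone. Sphk2 KO 1 had the fewest fragments and peaks, and the part of depth in these calls was not tested. Without Sphk2 KO 1 the counts were 66 Sphk2 KO-only and 48 WT-only, and their order turned. There a Sphk2 KO-only region needed a peak in 1 library and a WT-only region in 2, so these counts are not on equal terms. With lists of equal length, which keep Sphk2 KO 1, they were 13 and 11, and the order turned as well. The shares over all regions were not computed under these settings.

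Genes beside the stretches were then set against 11 gene lists. Of 20661 autosomal protein-coding genes, 883 (4.27%) were next to a stretch, and 52 of the 251 list genes were. Among myeloid transcription factors 14 of 36 were, against that background of 4.27%. These were Cebpb, Runx1, Klf6, Fosl2, Nr4a1, Bcl6, Irf1, Irf2, Zeb2, Id2, Bach1, Atf3, Etv6 and Fli1. Next to an isolated distal shared region were 28 of the 36 (77.8%), against 27.6% of all genes. An excess over all genes was thus not particular to stretches. Runx1, a core haematopoietic factor gene, lay 35.6 kb from 4 regions with positions of 39.1 and 36.7 in Sphk2 KO and 43.8 and 41.2 in WT. Fli1, an ETS factor gene, held 3 regions with 75.1 and 70.8 in Sphk2 KO and 59.6 and 62.3 in WT, and each member stood higher in Sphk2 KO. Fosl2, an AP-1 subunit gene, lay 13.5 kb from 3 regions with 76.5 and 74.8 in Sphk2 KO and 64.6 and 69.4 in WT. A second stretch, 33.8 kb from Fosl2, had 55.3 and 50.1 in Sphk2 KO and 53.3 and 45.5 in WT, and its groups overlapped. Nr4a1, the orphan receptor gene required for patrolling monocytes, overlapped 5 regions with 58.9 and 61.7 in Sphk2 KO and 60.8 and 55.1 in WT, which overlapped. The Zeb2 stretch had low positions, 19.9 and 17.3 in Sphk2 KO and 14.4 and 15.1 in WT. Zeb2 is a repressor gene of myeloid differentiation, and the member with its 2 AP-1 matches had 26.5 and 27.3 in Sphk2 KO and 31.6 and 31.6 in WT, lower in Sphk2 KO while the stretch as a whole was higher.

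Of the genes in the list named NF-kB and MAPK feedback, 8 of 25 were next to a stretch: Nfkbiz, Dusp1, Dusp5, Dusp16, Zfp36l1, Zfp36l2, Socs3 and Pim1. Isolated distal regions lay next to 20 of the 25. Nfkbiz, which encodes a nuclear partner of NF-kB, lay 12.1 kb from 3 regions with 17.6 and 19.5 in Sphk2 KO and 29.3 and 31.7 in WT. Dusp1, a MAP kinase phosphatase gene, overlapped 3 regions with 64.1 and 61.6 in Sphk2 KO and 64.8 and 67.8 in WT. Dusp5, another phosphatase gene, lay 63.8 kb from 3 regions with 61.3 and 53.5 in Sphk2 KO and 47.1 and 48.1 in WT. The direction thus differed within the list, with WT higher at Nfkbiz, Dusp1, Dusp16 and Zfp36l1 and Sphk2 KO higher at Dusp5 and Zfp36l2, and it overlapped at Socs3, Pim1 and a second stretch beside Dusp1.

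Of receptors and adhesion genes 11 of 34 were next to a stretch, and of inflammatory mediators 6 of 24. Isolated distal regions lay next to 28 of the 34 and 15 of the 24. Cxcr4 lay 17.0 kb from 3 regions with 42.0 and 31.6 in Sphk2 KO and 36.7 and 36.1 in WT. Il4ra, the interleukin 4 receptor gene, overlapped 3 regions with 55.4 and 52.9 in Sphk2 KO and 46.7 and 44.1 in WT. Clec4d, Clec4e and Clec4n, lectin receptor genes of myeloid cells, shared 1 stretch with 54.2 and 47.5 in Sphk2 KO and 54.6 and 47.4 in WT. Il1a and Il1b, the interleukin 1 ligands, shared a 6-region stretch with 59.1 and 53.7 in Sphk2 KO and 53.7 and 54.8 in WT. Cxcl1, a neutrophil chemoattractant gene, lay 8.89 kb from 3 regions with 53.4 and 48.5 in Sphk2 KO and 37.9 and 42.9 in WT. Of these, the groups did not overlap at Il4ra and Cxcl1, both higher in Sphk2 KO. Elsewhere in these lists WT was higher at Ptafr, with 56.8 and 57.3 in Sphk2 KO and 61.8 and 59.8 in WT. Sphk2 KO was higher at Ccr2, Cd84 and Thbs1, and the stretches at Ccr1, Itgb2, Cd44, Il1rn and Alox5ap overlapped.

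**Figure D5:**
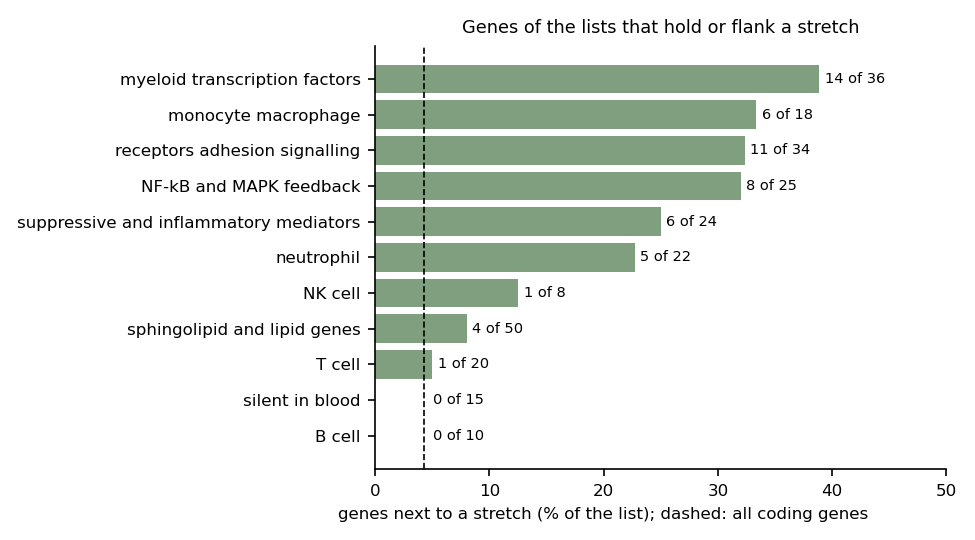
Share of each gene list (horizontal axis, percent) that holds or flanks a stretch, with the number of genes beside each bar. The dashed line marks 4.27%, the share of all autosomal protein-coding genes.

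Markers of both MDSC-like lineages were represented. Of neutrophil markers 5 of 22 were next to a stretch and of monocyte and macrophage markers 6 of 18. Isolated distal regions lay next to 12 of the 22 and 9 of the 18. S100a8 and S100a9, the genes of the calprotectin subunits, flanked 1 stretch of 3 regions with 27.0 and 23.6 in Sphk2 KO and 27.9 and 22.6 in WT. Itgb2, the gene of the beta chain that pairs with CD11b, held 3 regions with 65.8 and 71.5 in Sphk2 KO and 72.2 and 70.7 in WT. Ccr2, the receptor for CCL2, lay 33.0 kb from 3 regions with 28.6 and 33.7 in Sphk2 KO and 27.3 and 23.7 in WT. The Ccr2 stretch thus stood higher in both Sphk2 KO libraries, as did that of Thbs1, whereas the Cx3cr1 stretch stood higher in both WT libraries. The other monocyte and macrophage stretches, at Cd14, Nr4a1 and both at Adgre1, overlapped. Trem1, an activating receptor gene of neutrophils and monocytes, lay 31.0 kb from 3 regions with 34.8 and 29.96 in Sphk2 KO and 25.8 and 29.66 in WT. Of the neutrophil list, the Trem1 stretch and both stretches at Il1r2 stood higher in Sphk2 KO, and those at S100a8 and S100a9 and at Itgb2 overlapped. Of markers of other cells, 1 of 20 T cell genes (Cd5), 1 of 8 natural killer cell genes (Klrb1c), 0 of 10 B cell genes and 0 of 15 genes silent in blood were next to a stretch. Next to an isolated distal region the counts were 7, 1, 2 and 1 in the same order. A region called in all 4 libraries within 1 kb of a gene end was present for 11 of 22 neutrophil, 9 of 18 monocyte, 2 of 20 T cell, 0 of 8 natural killer cell, 0 of 10 B cell and 0 of 15 silent genes, against 41.5% of all genes. Of the 883 genes next to a stretch 510 (57.8%) had one, and of the 5176 genes next to isolated distal regions but no stretch 55.3%.

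Of 50 sphingolipid and lipid genes 4 (8%) were next to a stretch, S1pr1, Sgms1, Sgms2 and Fasn, against 4.27% of all genes. Isolated distal regions lay next to 27 of the 50 (54%), against 27.6% of all genes. Sgms1, the gene of sphingomyelin synthase 1, held 4 stretches, the most of any gene, and gene length was not taken into account. Its longest, with 8 regions over 28.3 kb, had 35.7 and 37.4 in Sphk2 KO and 32.7 and 33.5 in WT, and its highest, with 3 regions, had 69.6 and 70.2 in Sphk2 KO and 67.5 and 60.7 in WT. The stretch that holds the printed Sgms1 window had 53.0 and 48.8 in Sphk2 KO and 53.3 and 53.6 in WT. Stretches within the gene thus ran in both directions. S1pr1, a receptor gene for sphingosine 1-phosphate, lay 14.4 kb from 3 regions with low positions of 11.1 and 6.65 in Sphk2 KO and 6.91 and 10.8 in WT. Fasn, the fatty acid synthase gene, lay 72.7 kb from 3 regions with 66.7 and 63.0 in Sphk2 KO and 59.2 and 58.5 in WT. Sphk2 itself was next to no stretch.

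Of microRNA genes, 5 had their hairpin inside a stretch and none inside a member. The share over all microRNA genes was not computed, so these counts are a description only. The best known is miR-21a, a microRNA abundant in myeloid cells, whose hairpin lies at chr11:86584067-86584158 (minus strand), 2170 bp from the nearest member of a 4-region stretch that overlaps Vmp1. That stretch had positions of 50.7 and 51.7 in Sphk2 KO and 49.1 and 47.3 in WT, with both Sphk2 KO libraries higher. Its mature sequences from RefSeq are printed with the seed, bases 2 to 8, in capitals.
miR-21a-5p: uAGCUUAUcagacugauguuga
miR-21a-3p: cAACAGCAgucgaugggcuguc

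The other hairpins inside stretches were those of miR-339, in a stretch at Gpr146, miR-7681 in Hecw2, miR-7688 beside Lta4h, and miR-5135 at Plekhg3. ATAC-seq peaks do not measure microRNA levels, and none are given here.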

How the data were processed

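ATAC-seq peak lists of 4 libraries were used, 2 from Sphk2 KO and 2 from WT mice. The submitters' processing notes name cutadapt, BWA, MACS2 and mm10, without versions or order. Per the file headers, peaks were called on paired-end fragments of each library separately by MACS 2.1.1.20160309 with no control sample, to a q-value limit of 0.05, with local background from 10000 bp and 1 fragment kept per position. The deposited lists give for each peak its pileup (height of the fragment coverage signal), the −log10 of the authors' q-value, and the authors' fold enrichment, a ratio of pileup over local background. The sources used here do not give whether fragment ends were shifted for Tn5. The lists hold no read counts, so no count model was run, and intervals from counting were not given. Depth ranged from 25877428 to 34443062 fragments, and a region without a peak may be accessible below the threshold.

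Regions were built with Python 3.11.15 and pandas 2.3.3 as the report states, and the procedure was tested on simulated peaks. Coordinates count from 1. Genes and promoter windows came from RefSeq on GRCm38.p6, whose gene table gives no strand, exons or introns, so distances are to the nearer gene end. Scores are the authors' own, and each library's were turned into percentiles over the same 16657 regions. Genes were named by rule: those next to the 20 longest stretches and to the 10 others with the most regions. Those next to the 6 stretches per direction with the largest difference and genes of 11 lists were also named. Values were planned for up to 4 genes per list, longest stretch first, but the text departs from this. Runx1, Fli1, Zeb2 and Cxcl1 were given values, whereas Irf2 and Alox5ap, with longer stretches in the same lists, were not. A few further genes were named after their values were seen. Members and lists were chosen with earlier results of these data known, so counts over them are descriptions. Alternatives were 2 other gaps, other distances and sizes, a stricter threshold, lists of equal length, windows around summits, other scores and each library left out. Leaving out the Sfi1 and Scaf8 stretches was chosen after seeing the data.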

Additional observations from a re-analysis of the deposited data

How the results depend on the processing

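Of 139 alternative values for the main counts and differences, 90 were classed as the same, 48 as moved and 1 as reversed. Counts were the same within 1.5 times, and the margin over isolated regions within the SD of its values over libraries. The Sphk2 KO minus WT difference needed only to keep its sign, whatever its size. The Sphk2 KO minus WT difference of the members' median position kept its sign in all 14 alternatives run for it, from 0.88 points without Sphk2 KO 1 to 2.90 without Sphk2 KO 2, though by fold enrichment the genotypes overlapped. In 1 of the 14, the replicate block, this difference is the same by arithmetic and could not change. The margin of members over isolated regions was 4.96 with a gap of 5 kb, 6.71 over 1 kb from gene ends, 9.26 with 4 or more regions, 6.57 with summit windows and 18.7 by pileup, against 8.11 in the report, and it reversed to −8.87 by fold enrichment; the cause was not tested. A gap of 5 kb left 458 members in 139 stretches. Of these members 138 (30.1%) stood higher in Sphk2 KO and 73 (15.9%) in WT, against 22.1% and 21.4% of all shared regions. Of the stretches 50 stood higher in Sphk2 KO and 25 in WT, with 0 Sphk2 KO-only and 0 WT-only regions inside and 14 list genes. No background for stretches was computed under the alternatives. A gap of 25 kb gave 3226 members in 759 stretches. At 4 or more regions there were 939 members in 193 stretches. Of these members 304 (32.4%) stood higher in Sphk2 KO and 140 (14.9%) in WT, against 22.1% and 21.4% of all shared regions. Of the stretches 83 stood higher in Sphk2 KO and 32 in WT, with 6 Sphk2 KO-only and 17 WT-only regions and 19 list genes. Requiring −log10 q of at least 5 left 3 Sphk2 KO-only regions, lists of equal length 13 Sphk2 KO-only and 11 WT-only regions, which turned their order, and fold enrichment 104 stretches higher in Sphk2 KO. The gap and size settings hold fewer or more regions by construction.

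With a library left out, the margin over isolated regions ranged from 7.67 to 10.8. Members higher in Sphk2 KO numbered 828 to 1058 (41.4% to 48.6%), against 35.8% to 37.3% of all shared regions. Members higher in WT numbered 509 to 789 (27.3% to 30.8%), against 34.4% to 36.9% of all shared regions. Stretches numbered 242 to 299 in Sphk2 KO and 120 to 219 in WT. A group of 1 library overlaps less easily, and the share over all shared regions rose likewise. Sphk2 KO-only regions inside spans numbered 15 to 66 and WT-only regions 48 to 76, with more Sphk2 KO-only than WT-only regions without Sphk2 KO 1. For the genotype with a library left out, a peak in 1 library sufficed for such a call. The replicate numbers did not pair the libraries: the correlation of same-numbered deviations from the group means over all shared autosomal regions was 0.0103. With the number as a replicate block, 707 members stood higher in Sphk2 KO and 413 in WT in both pairs. This criterion is looser than groups that do not overlap. No share over all shared regions was computed for it, so these counts have no background. The difference of medians, 1.92, is the same under the block by arithmetic. The other results were not run under the block. Of 132 counts for single gene lists, 98 stayed within 1.5 times and 34 did not. The Sphk2 KO share of members that stood apart by genotype was 57.3% without Sphk2 KO 1 and 57.4% by fold enrichment, the lowest of all settings, against 51.3% and 50.7% of all shared regions.

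The chief limits are 2 libraries a genotype, which cannot reach p under 0.33, scores that depend on depth and local background, lists chosen with results known, and gene distances without strand or contact data.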

Other observations

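Some stretches lay far from any protein-coding gene. Of the 473, 25 had none within 100 kb, and their nearest genes included Dusp6, Ets2, Cited2, Bcl2l11 and Id2. A stretch of 4 regions 282 kb from Id2, apart from that at 69.6 kb, had score positions of 14.4 and 14.2 in Sphk2 KO and 29.6 and 22.0 in WT. The Ets2 stretch, 106 kb from this ETS factor gene, had 58.9 and 60.8 in Sphk2 KO and 56.8 and 60.99 in WT.

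Counts of stretches in each direction were uneven among chromosomes, which was not tested. On chromosome 6, 4 of 30 stretches stood higher in both Sphk2 KO libraries and 14 in both WT libraries, and 16.2% and 27.0% of its members, against 19.3% and 24.9% of all its shared regions. On chromosome 8 the counts were 9 and 0 of 19 stretches, with 35.4% and 12.7% of members against 17.1% and 25.8% of all shared regions. Chromosome 19 had the largest share of its distal shared regions in stretches, 31.0%.

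On the X chromosome, left out of the set, the same steps gave 2 stretches with 7 regions out of 111 distal shared regions. One lay in Bcor, the gene of a BCL6 corepressor, with median −log10 q of 3.93 and 12.98 in Sphk2 KO and 12.7 and 8.07 in WT, and the other over Mtm1, a phosphoinositide phosphatase gene, with 17.9 and 17.8 in Sphk2 KO and 16.8 and 25.1 in WT.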
